A study of Homo sapiens with 24 samples.

Results

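The clustered protocadherins are cadherin-family adhesion proteins whose genes stand in a row in 3 clusters, called alpha, beta and gamma, on the long arm of chromosome 5. A gene was taken as a member when its Ensembl identifier matched a symbol of the PCDHA, PCDHAC, PCDHB, PCDHGA, PCDHGB or PCDHGC series. This gave 53 of the 43037 genes of the deposited table, and 1 further match, PCDHA14, was left out as a pseudogene. There were 15 members in the alpha cluster (PCDHA1 to PCDHA13, PCDHAC1 and PCDHAC2), 16 in the beta cluster and 22 in the gamma cluster (12 PCDHGA, 7 PCDHGB and the 3 genes PCDHGC3, PCDHGC4 and PCDHGC5). In GENCODE 44 on GRCh38 all of them lie on the plus strand of chromosome 5, the alpha cluster from 140786136 to 141012347, the beta cluster from 141051374 to 141249365 and the gamma cluster from 141330514 to 141512977.

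The values came from CAGE-Seq, which reads the capped 5′ ends of transcripts, in 4 established cell lines of glioblastoma, a malignant brain tumor: U87MG, T98G, U251MG and DBTRG-05MG. There were 2 variants of each. The “WWOX” variant carried a lentivirus (pLenti-GIII-CMV-GFP-2A-Puro, while the paper names the GIPZ system) that expresses WWOX, a WW-domain oxidoreductase. The “Vec” variant carried the Puro-Blank control lentivirus. All 8 groups, the controls included, were thus stably transduced and selected with puromycin, and each had 3 libraries. T98G was grown in MEM, DBTRG-05MG in RPMI, and U87MG and U251MG in EMEM, so a difference between these sets of lines and one of medium cannot be told apart. The puromycin step is described as selection of clones, and how many clones a variant descends from is not given in the sources used here. The comparisons below give which members each line transcribed, how the “Vec” groups differed between lines, and how the “WWOX” variant differed from “Vec” within each line.

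In the alpha and gamma clusters each variable first exon has its own promoter and is spliced to constant exons that the whole cluster shares, so the choice of promoter sets which protein is made. The beta genes hold their coding sequence in 1 exon. A neuron transcribes a small set of the variable genes, chosen largely at random, by looping of their promoters to distant enhancers through CTCF and cohesin, and promoters that are not used carry DNA methylation. The proteins bind the same isoforms on a neighboring cell, which serves self-recognition of neurites. The 5 C-type genes (PCDHAC1, PCDHAC2, PCDHGC3, PCDHGC4 and PCDHGC5) are regulated apart from the variable ones. Since CAGE counts 5′ ends, a tag can tell one promoter of a cluster from the next where its sequence belongs to 1 gene only. The number of tags was compared between genes without division by length.

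Promoters were taken from RefSeq (GRCh38.p14, 250 bases before to 50 bases after the start) for 47 of the 53 members. The promoters of PCDHB10 and PCDHGA4 are shown because these genes had more tags in U87MG “WWOX”, that of PCDHGA3 because its tags were absent there, and that of PCDHGC3 because it was the highest member in every library. Capitals mark TGGCGCT or TGTCGCT, letters around the CGCT core of the promoter element known from this family. They were chosen after the promoters had been viewed. The 4 promoters lie at chr5:141192103-141192402, chr5:141354771-141355070, chr5:141343579-141343878 and chr5:141475716-141476015, all on the plus strand.
PCDHB10: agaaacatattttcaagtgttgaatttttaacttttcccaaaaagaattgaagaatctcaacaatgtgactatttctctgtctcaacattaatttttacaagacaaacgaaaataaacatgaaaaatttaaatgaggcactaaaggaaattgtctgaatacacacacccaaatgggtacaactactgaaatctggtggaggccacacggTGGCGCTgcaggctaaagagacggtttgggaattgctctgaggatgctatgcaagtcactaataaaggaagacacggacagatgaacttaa
PCDHGA4: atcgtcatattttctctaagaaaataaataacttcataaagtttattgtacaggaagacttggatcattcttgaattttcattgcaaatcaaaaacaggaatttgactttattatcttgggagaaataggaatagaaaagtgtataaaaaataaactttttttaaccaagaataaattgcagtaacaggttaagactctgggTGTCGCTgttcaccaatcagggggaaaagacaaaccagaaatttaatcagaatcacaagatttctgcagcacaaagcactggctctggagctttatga
PCDHGA3: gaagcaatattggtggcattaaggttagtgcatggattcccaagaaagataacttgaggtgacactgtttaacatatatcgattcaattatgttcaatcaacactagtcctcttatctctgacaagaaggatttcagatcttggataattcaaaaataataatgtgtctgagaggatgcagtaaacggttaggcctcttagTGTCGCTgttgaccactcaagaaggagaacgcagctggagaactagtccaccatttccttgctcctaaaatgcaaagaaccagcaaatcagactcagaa
PCDHGC3: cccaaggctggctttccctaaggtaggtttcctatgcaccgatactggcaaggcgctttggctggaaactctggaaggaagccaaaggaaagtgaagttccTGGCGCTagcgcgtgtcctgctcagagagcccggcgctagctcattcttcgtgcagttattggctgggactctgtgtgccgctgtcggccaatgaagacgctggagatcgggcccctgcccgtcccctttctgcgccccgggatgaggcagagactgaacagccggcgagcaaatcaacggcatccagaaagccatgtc
The marked letters begin 41 bases before the start of PCDHB10, 48 before that of PCDHGA4, 49 before that of PCDHGA3 and 149 before that of PCDHGC3. Windows of 40 bases around the same letters are shown for an alpha member and 4 other beta members, because several of these genes differ between the lines, at chr5:140855838-140855877, chr5:141135176-141135215, chr5:141172563-141172602, chr5:141213862-141213901 and chr5:141245311-141245350.
PCDHA10: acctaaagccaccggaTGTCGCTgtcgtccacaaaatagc
PCDHB5: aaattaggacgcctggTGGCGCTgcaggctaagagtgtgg
PCDHB7: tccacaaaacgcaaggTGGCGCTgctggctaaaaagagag
PCDHB13: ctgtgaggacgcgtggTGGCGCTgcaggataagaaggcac
PCDHB15: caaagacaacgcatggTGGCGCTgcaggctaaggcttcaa
On both strands, TGGCGCT or TGTCGCT stood in 29 of the 47 promoters (61.7%) and in 1575 of all 27305 promoters of the table (5.77%). By cluster these were 10 of 13 alpha promoters, 13 of 14 beta promoters and 6 of 20 gamma promoters. The alpha matches were all TGTCGCT, and TGGCGCT was in 13 beta and 3 gamma promoters. Both motifs contain CGCT, which alone was in 46 of the 47 and in 69.4% of all promoters. Members with and without tags both held the letters, so the motif count says nothing of which promoter was used.

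Depth was 10756072 to 16953689 tags per library (median 14584829), and each deposited value, a CPM (tags of a gene scaled to a common library total), corresponds to a whole number of tags. A count of 0 allows up to 3 tags, which is 0.177 to 0.279 CPM, and covers counting error only. WWOX, the targeted gene, had 61.0 to 66.0 CPM in U87MG “WWOX” against 33.9 to 40.1 in “Vec”, and 28.0 to 32.0 against 20.4 to 22.2 in DBTRG-05MG. The ranges overlapped in T98G (45.1 to 61.8 against 34.2 to 57.2). In U251MG the library labelled “WWOX” replicate 2 had 17.4 CPM of WWOX, below all “Vec” libraries (31.4 to 36.8), and the others had 56.7 and 38.0, so directions in U251MG are those of the labels. With limma the log2 fold change (log2FC) of WWOX was 0.66 in U87MG (adjusted p = 0.135), 0.39 in DBTRG-05MG (0.770), 0.38 in T98G (0.557) and −0.01 in U251MG (1.00). These values are tags on the WWOX gene, whereas the paper reports that Western blot, a measure of protein, verified the efficiency of transduction. Whether tags of the lentiviral transcript were counted on the WWOX gene was not tested. Of glial markers CD44 was at 678 CPM or more in every library and VIM at 13.5 or more. GFAP, the classical astrocyte filament, ranged from 114 to 3226 CPM in U251MG and was at 0.790 to 11.6 in the other lines. The other glial markers listed (S100B, OLIG2, NES, SOX2, SLC1A3, AQP4 and FABP7) each had no tag in at least 1 library. Their highest values ranged from 1.03 CPM for AQP4 to 343 for S100B. AIF1 and MOG had no tag in any library and PTPRC was at 0.0930 CPM or less. Other markers of their lists were present, with highest values of 52.0 CPM for MBP, 10.3 for MYRF and 13.2 for CDH5. Of the neuronal markers TUBB3 ranged from 15.0 to 188 CPM and MAP2 from 4.28 to 216, while RBFOX3 was at 0.203 or less.

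Clustered protocadherin transcription was sparse, and it was carried by the gamma cluster. Of the 53 members, 7 had no tag in any of the 24 libraries and 23 never had more than 3 tags in a library. Another 21 had more than 3 tags in every library of at least 1 group: 1 alpha, 8 beta and 12 gamma genes. Only 4 did so in all 8 groups, namely PCDHB7, PCDHGA9, PCDHGB2 and PCDHGC3. The summed level of all members ranged from 54.3 CPM in a U87MG “Vec” library to 271 CPM in a U251MG “WWOX” library.

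**Figure D1:**
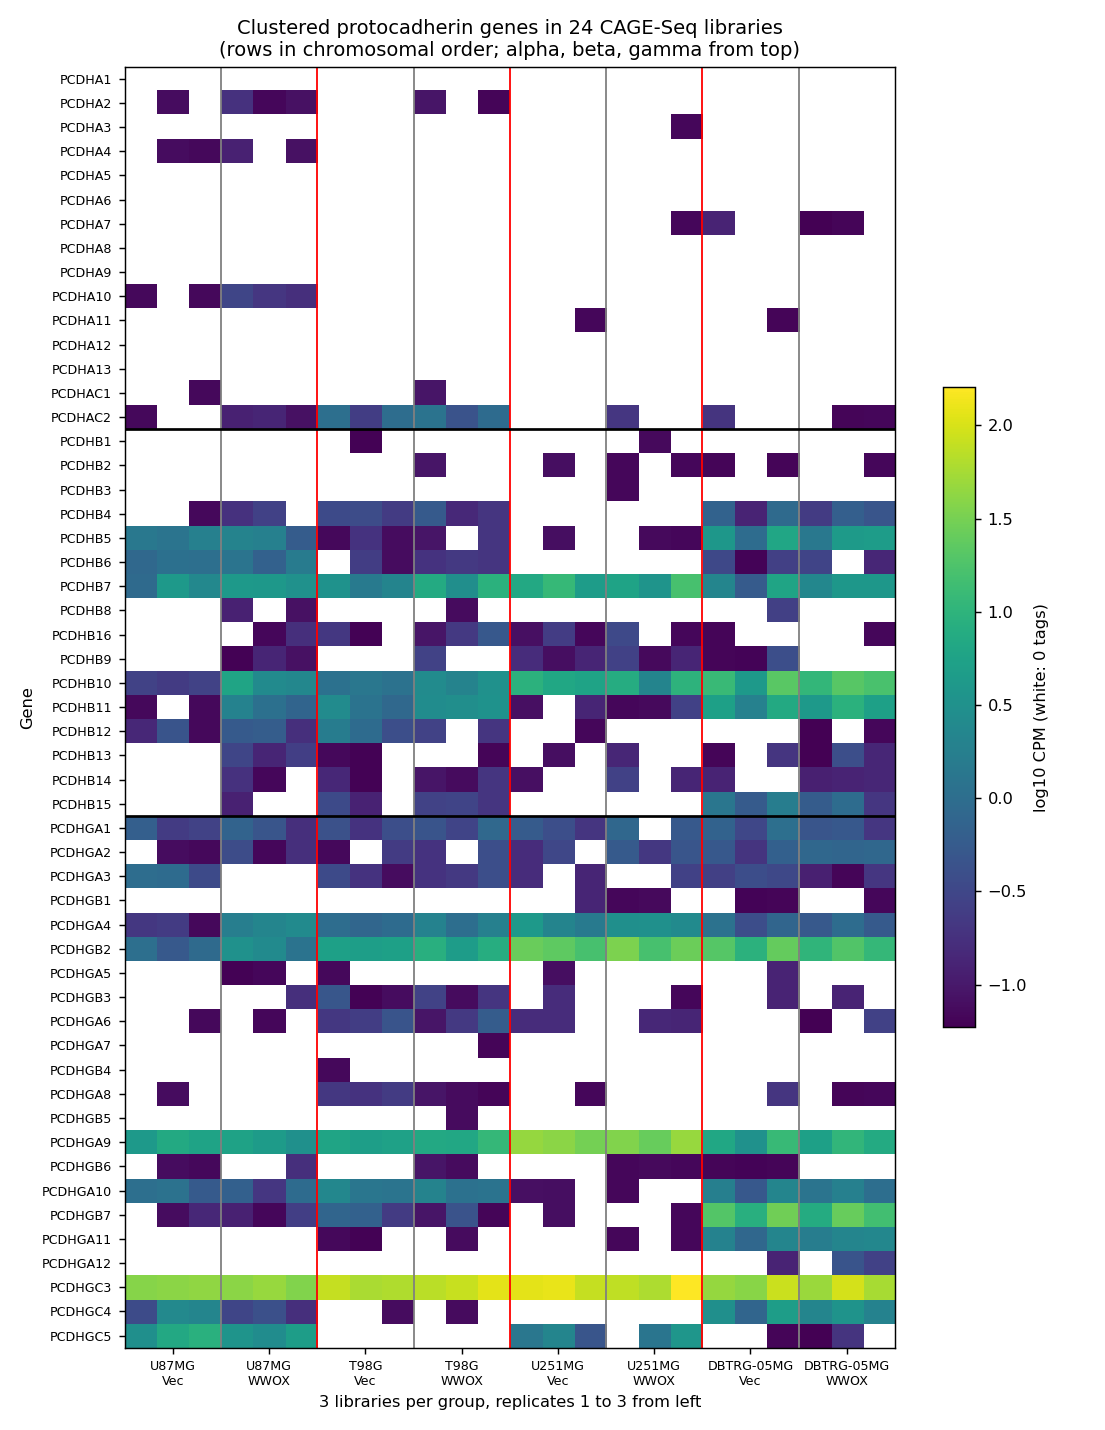
Level of each of the 53 members (rows, in chromosomal order) in each of the 24 libraries (columns), as log10 CPM on the color scale; white cells had 0 tags. PCDHGC3 is the brightest row in every group, the alpha rows are nearly blank, and PCDHGB7 and PCDHGA11 are filled mainly in DBTRG-05MG.

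The C-type gene PCDHGC3 was the highest member in all 24 libraries. Its CPM in replicates 1, 2 and 3 of “Vec” was 117, 123 and 79.2 in U251MG, 80.0, 58.2 and 62.9 in T98G, 46.6, 39.6 and 86.5 in DBTRG-05MG, and 38.8, 40.6 and 43.2 in U87MG. By mean U251MG was the highest and U87MG the lowest, but each line overlapped the next in this order. In “WWOX” it was 75.6, 61.4 and 161 in U251MG, 71.9, 82.0 and 116 in T98G, 49.5, 98 and 56.7 in DBTRG-05MG, and 41.3, 46.9 and 35.6 in U87MG. The ranges of “Vec” and “WWOX” overlapped in every line. Its share of all member tags was 74.5% ± 0.691 (SD, n = 3) in T98G “Vec”, 64.8% ± 6.02 in U87MG, 56.7% ± 1.59 in U251MG and 43.9% ± 9.27 in DBTRG-05MG. The share was the most uneven in DBTRG-05MG “Vec”, with 36.2%, 54.2% and 41.3% in replicates 1, 2 and 3.

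The other C-type genes were detected in some lines and not in others at this depth. PCDHGC5 had 3.05, 6.95 and 8.91 CPM in U87MG “Vec” and 1.38, 2.15 and 0.469 in U251MG “Vec”, no tag in all 6 T98G libraries, and at most 3 tags in a DBTRG-05MG library. PCDHGC4 had 3.08, 0.773 and 4.87 CPM in DBTRG-05MG “Vec” and 0.355, 2.47 and 2.17 in U87MG “Vec”, with no tag in the 6 U251MG libraries and at most 1 in a T98G library. Thus U87MG transcribed both, U251MG PCDHGC5, DBTRG-05MG PCDHGC4, and T98G neither above the limit. PCDHAC2, a C-type alpha gene, had 1.05, 0.251 and 1.01 CPM in T98G “Vec” and 1.21, 0.445 and 0.924 in T98G “WWOX”, and was at 3 tags or fewer in each library of the other lines. PCDHAC1 had 1 tag in 2 of the 24 libraries.

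The variable gamma genes with more than 3 tags in every “Vec” library differed by line, but the sets overlapped. Those of U87MG, T98G and U251MG all had more than 3 tags in every DBTRG-05MG “Vec” library too. PCDHGA9 was at 45.6, 41.3 and 30.7 CPM in U251MG “Vec”, against 4.26, 7.11 and 5.75 in U87MG, 5.98, 4.95 and 5.45 in T98G and 6.61, 3.22 and 12.1 in DBTRG-05MG. U251MG stood above the rest, which overlapped. PCDHGB2 was at 26.0, 22.4 and 15.9 CPM in U251MG “Vec” and 20.0, 9.59 and 24.9 in DBTRG-05MG, then 5.27, 5.01 and 5.37 in T98G, and 1.07, 0.541 and 0.912 in U87MG. PCDHGB7 was at 19.1, 8.63 and 28.8 CPM in DBTRG-05MG “Vec”, where 134 to 437 tags stood against at most 11 in any “Vec” library of the other lines. PCDHGA11 showed the same line (1.96, 0.837 and 2.17 CPM, with at most 1 tag in a library elsewhere). PCDHGA10 was absent from U251MG (at most 1 tag in a library) and had 0.928 ± 0.322 CPM in U87MG, 1.63 ± 0.601 in T98G and 1.49 ± 0.864 in DBTRG-05MG “Vec” (SD, n = 3). PCDHGA5, PCDHGA7, PCDHGA8, PCDHGB1, PCDHGB4, PCDHGB5 and PCDHGB6, by contrast, had at most 3 tags in any library.

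The beta genes also differed by line. PCDHB7 was present in all lines, with 7.05, 11.7 and 4.69 CPM in U251MG “Vec”, 0.923, 4.10 and 2.38 in U87MG, 3.30, 1.50 and 2.10 in T98G and 2.16, 0.580 and 5.99 in DBTRG-05MG. PCDHB10 was at 12.4, 4.19 and 21.1 CPM in DBTRG-05MG “Vec” and 9.65, 6.53 and 5.76 in U251MG, but at 1.12, 1.38 and 1.17 in T98G and 0.284, 0.232 and 0.281 in U87MG, where 4, 3 and 4 tags were counted. PCDHB10 was thus the leading beta gene in one line and at the limit of detection in another. PCDHB11, its neighbor 7257 bases downstream by gene start, was at 5.30, 1.93 and 7.25 CPM in DBTRG-05MG “Vec” and 2.67, 1.19 and 0.856 in T98G, with at most 2 tags in a “Vec” library of U87MG or U251MG. PCDHB5 was at 3.93, 0.966 and 6.32 CPM in DBTRG-05MG “Vec” and 1.42, 1.24 and 1.82 in U87MG, with at most 3 tags in a “Vec” library of T98G or U251MG. PCDHB6 (0.995 ± 0.125 CPM) was above the limit in “Vec” of U87MG, PCDHB12 (0.982 ± 0.615) in that of T98G and PCDHB15 (1.20 ± 0.574) in that of DBTRG-05MG (SD, n = 3).

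The alpha cluster was close to silent. PCDHA1, PCDHA5, PCDHA6, PCDHA8, PCDHA9, PCDHA12 and PCDHA13 had no tag in 24 libraries, and among the other variable alpha genes the highest count was 5 tags, for PCDHA10 in U87MG “WWOX” replicate 1. The leading alpha member in “Vec” was PCDHAC2 in T98G (32 tags over 3 libraries) and in DBTRG-05MG (3 tags). In U87MG it was PCDHA4 (0, 1 and 1 tags) and in U251MG PCDHA11 (0, 0 and 1 tag), so in these lines no order can be drawn. Summed over the cluster, “Vec” had 0.772 ± 0.452 CPM in T98G, 0.169 ± 0.0364 in U87MG, 0.131 ± 0.173 in DBTRG-05MG and 0.0223 ± 0.0387 in U251MG (SD, n = 3). For the beta cluster the sums were 26.5 ± 18.0 CPM in DBTRG-05MG, 15.6 ± 4.18 in U251MG, 7.01 ± 2.60 in T98G and 5.52 ± 1.72 in U87MG, and for the gamma cluster 172 ± 37.9 in U251MG, 111 ± 50.9 in DBTRG-05MG, 82.3 ± 13.3 in T98G and 57.9 ± 6.46 in U87MG. In culture, fewer cells with a transcript and less transcript per cell cannot be told apart.

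**Figure D2:**
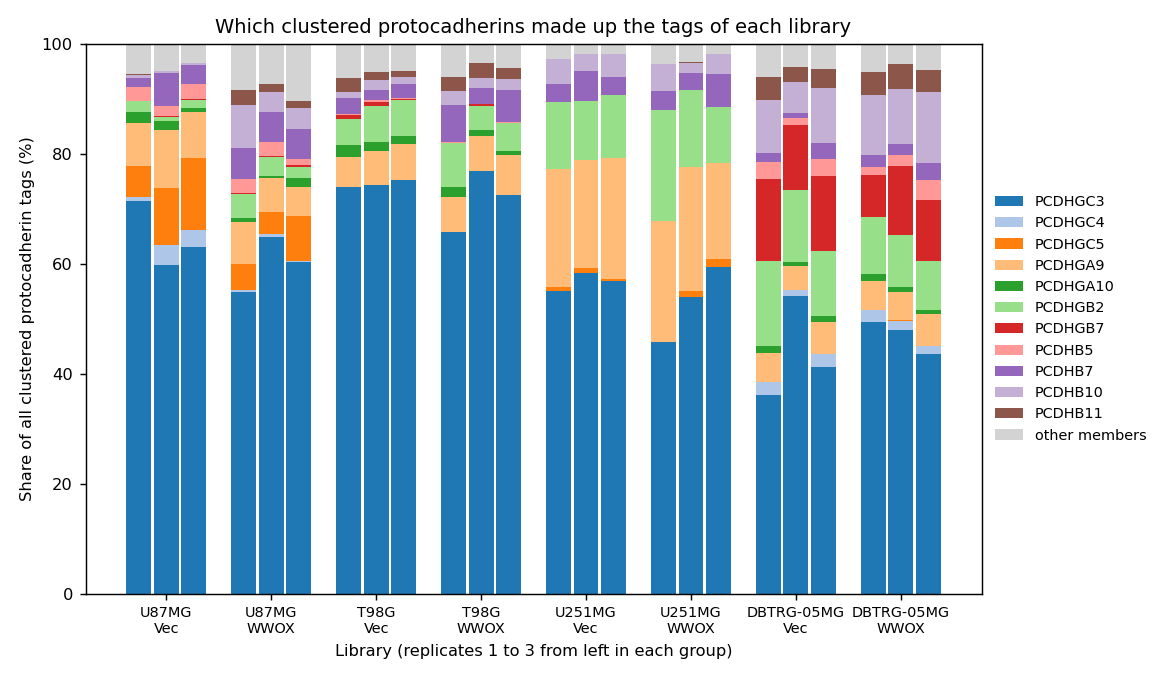
Share (%) of all clustered protocadherin tags that each of 11 named members and the rest took in each of the 24 libraries (stacked bars, 100% per library). PCDHGC3 takes 36.2% to 76.9%, PCDHGA9 is widest in U251MG, and PCDHGB7 appears as a visible band in DBTRG-05MG only.

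Gene spans bear on these counts. Each alpha and each gamma gene overlaps every other member of its cluster in the annotation, because all run to the shared constant exons, and many beta genes overlap antisense genes that were not analysed here. How tags in overlapping genes were assigned is not given in the sources used here. The values were not sums over nested genes, since PCDHGB4, whose span contains PCDHGC3, had at most 1 tag in a library where PCDHGC3 had 420 to 2380. Of the members, 34 of 53 had no 75-base window in the first 300 bases of their protein-coding transcripts (GENCODE 44) that is also found in a transcript of another gene. PCDHB10, PCDHB11, PCDHGA3, PCDHGA4, PCDHGA9, PCDHGB2 and PCDHGC5 were among these. The share of unique windows was 92.9% for PCDHB5 (shared with PCDHB10), 91.0% for PCDHGC3 and 81.5% for PCDHGC4 (each shared with all other gamma members). It was 64.7% for PCDHGB7 (shared with PCDHGB6), 61.9% for PCDHB13 and 54.2% for PCDHB15. The values of all these members are less certain. How far tags from the shared windows added to PCDHGC3, the highest member, was not tested.

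To test differences between lines and variants, limma was fitted to the whole table with all 8 groups, on the log2 of CPM plus 0.5 after TMM (trimmed mean of M-values) scaling. The 12327 genes that reached 5 CPM in 1 library or more were tested, and adjusted p (Benjamini-Hochberg, two-sided) had a threshold of 0.05. Of the 53 members, 9 passed this filter: PCDHB5, PCDHB7, PCDHB10, PCDHB11, PCDHGA9, PCDHGB2, PCDHGB7, PCDHGC3 and PCDHGC5. A member could pass through the line in which it was high, so the number that differed between lines is a description. PCDHB5, PCDHB11 and PCDHGB7 reached 5 CPM only in DBTRG-05MG and PCDHGC5 only in U87MG. Their p-values between lines are a description too. With at least 1 CPM in 1 library, 18 members were tested, adding PCDHAC2, PCDHB6, PCDHB12, PCDHB15, PCDHGA1, PCDHGA4, PCDHGA10, PCDHGA11 and PCDHGC4. Fold changes are on the log2(CPM + 0.5) scale and understate changes of low genes.

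Between the “Vec” groups of the 4 lines, all 9 tested members differed by limma's F-test, where 66.9% of all genes tested did. The adjusted p ranged from 1.05e-10 for PCDHGB7 to 0.0409 for PCDHB7. With the lower filter it was 17 of 18, PCDHGA1 being the exception, against 67.1% of all genes. By pairs, U87MG differed from T98G in 5 of 9 members (39.8% of all genes), from U251MG in 7 (38.6%) and from DBTRG-05MG in 5 (44.1%). T98G differed from U251MG in 6 (32.4%) and from DBTRG-05MG in 5 (41.2%), and U251MG differed from DBTRG-05MG in 7 (31.6%). Shared controls link these 6 pairs, and the comparisons are not independent.

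The order of the lines differed from member to member. For PCDHGA9 U251MG was first, and its log2 difference from DBTRG-05MG, the next, was 2.54 ± 0.34 (SE, limma, adjusted p = 2.93e-06), while DBTRG-05MG, U87MG and T98G did not differ past the threshold (0.973 and 0.941 for neighbors). For PCDHGB2, U251MG and DBTRG-05MG were not separated (adjusted p = 0.461), T98G was below DBTRG-05MG (log2 difference −1.40 ± 0.34, adjusted p = 0.00194), and U87MG was below T98G (−2.15 ± 0.34, 1.94e-05). Thus 2 of the 3 neighboring differences passed for PCDHGB2 and 1 for PCDHGA9. For PCDHB10, DBTRG-05MG and U251MG were not separated (adjusted p = 0.446), T98G was below U251MG (−2.02 ± 0.43, 0.000789), and U87MG was below T98G (−1.21 ± 0.43, 0.0289). For PCDHGC3, no neighbors in the order U251MG, T98G, DBTRG-05MG and U87MG were separated (adjusted p = 0.234, 0.193 and 0.637 with limma), though U87MG was below U251MG (−1.18 ± 0.30, 0.00324) and DBTRG-05MG too (0.99 ± 0.30 higher in U251MG, 0.0145). For PCDHB7, U251MG was higher than DBTRG-05MG (1.60 ± 0.54, adjusted p = 0.0274 with limma) and U87MG (0.0432), but not past the threshold from T98G (0.0543), and DBTRG-05MG, U87MG and T98G were not separated from each other (0.806, 0.786 and 0.978). PCDHGB7 was higher in DBTRG-05MG than in T98G, the next (log2 difference T98G minus DBTRG-05MG −3.92 ± 0.37, limma, adjusted p = 9.87e-09), and PCDHGC5 was higher in U87MG than in U251MG (2.04 ± 0.48, 0.00155). Each of these genes entered the test only through the line in which it was high, so both differences are a description.

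In U87MG, PCDHB10 and PCDHB11 were higher in “WWOX” than in “Vec”. PCDHB10 had 0.284, 0.232 and 0.281 CPM in “Vec” and 5.93, 2.58 and 2.29 in “WWOX” (4, 3 and 4 tags against 97, 38 and 27). PCDHB11 had 1, 0 and 1 tags in “Vec” and 1.96, 1.09 and 0.762 CPM (32, 16 and 9 tags) in “WWOX”. In both genes every “WWOX” library lay above every “Vec” library, replicate 1 of “WWOX” being the highest. The log2FC of PCDHB10 was 2.32 ± 0.43 (SE, limma, adjusted p = 0.00160) and that of PCDHB11 was 1.67 ± 0.35 (adjusted p = 0.00630). These were 2 of 9 members, both higher, where 3.20% of all genes tested passed in U87MG and 1.54% passed upward. On summed tags, PCDHB10 had 14.2 times as many per total in “WWOX” (95% exact binomial interval 7.72 to 29.0) and PCDHB11, from 2 tags, 27.4 times (7.25 to 232), which covers counting error only. The call of PCDHB11 was lost without “WWOX” replicate 1 (log2FC 1.44, adjusted p = 0.0536), and that of PCDHB10 was kept without each library in turn. An exact permutation test of 3 against 3 libraries cannot go below p = 0.1, which both genes reached in U87MG.

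The other beta genes tested in U87MG did not pass. PCDHB5 had 1.42, 1.24 and 1.82 CPM in U87MG “Vec” and 2.02, 1.83 and 0.593 in “WWOX” (log2FC −0.14 ± 0.42, SE, limma, adjusted p = 1.00). PCDHB7, 19709 bases upstream of PCDHB10, had 0.923, 4.10 and 2.38 against 4.16, 4.0 and 3.22 (0.64 ± 0.54, limma, adjusted p = 0.842). PCDHB6, tested with the lower filter, had 0.852, 1.08 and 1.05 against 1.22, 0.679 and 1.61 (0.08 ± 0.21, limma, adjusted p = 1.00). All 3 pairs of ranges overlapped. Next to PCDHB10 and PCDHB11, PCDHB9 had no tag in “Vec” and 1, 2 and 1 in “WWOX”, and PCDHB12 had 2, 6 and 1 against 9, 9 and 2, which is too few for an order. Summed over the 16 beta genes the level was 12.5 ± 3.90 CPM in “WWOX” and 5.52 ± 1.72 in “Vec” (SD, n = 3), and the beta share of member tags was 15.6% to 22.4% against 6.80% to 10.5%.

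In the gamma cluster of U87MG single members moved within a sum that stayed close, 55.8 ± 5.71 CPM in “WWOX” and 57.9 ± 6.46 in “Vec” (SD, n = 3). PCDHGA3 and PCDHGA4, chosen after their values had been seen, start 11192 bases apart, with PCDHGB1 (at most 2 tags in any library) between them. PCDHGA4 had 0.213, 0.232 and 0.0701 CPM in “Vec” and 1.71, 2.17 and 2.63 in “WWOX” (3, 3 and 1 tags against 28, 32 and 31). With the filter of 1 CPM its log2FC was 1.99 ± 0.31 (SE, limma, adjusted p = 0.000192), where 3.76% of all genes passed. PCDHGA3 went the other way, with 14, 12 and 5 tags in “Vec” and 0, 0 and 0 in “WWOX”, at least 10.7-fold lower if “WWOX” is set at the limit of 3 tags over the group. The exact 95% upper limit of the ratio of “WWOX” to “Vec” was 0.122. It reached no library at 1 CPM and was tested only without a filter, where it was lower (limma, adjusted p = 0.000282) and 2.38% of 25953 genes passed. Without the filter 6 of 46 members passed, of which 5 were higher: PCDHA10 (1, 0 and 1 tags against 5, 3 and 2), PCDHB10, PCDHB11, PCDHB13 (0, 0 and 0 against 5, 2 and 3) and PCDHGA4. PCDHB13 was at least 3.21-fold higher with “Vec” set at the same limit (exact 95% lower limit 2.16), and PCDHA10 4.81 times as high (95% exact binomial interval 1.03 to 45.2). These are few tags, and the fitted values depend on the 0.5 that was added.

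Of the remaining gamma genes of U87MG, PCDHGB2 had 1.07, 0.541 and 0.912 CPM in “Vec” and 3.18, 2.58 and 1.19 in “WWOX”, without overlap, and its log2FC of 0.99 ± 0.34 did not pass (SE, limma, adjusted p = 0.145), while with DESeq2 it did. PCDHGC5, with the lowest log2FC of the tested members, had 3.05, 6.95 and 8.91 against 3.55, 2.78 and 4.83 (−0.66 ± 0.48, limma, adjusted p = 0.755). PCDHGC4 had 5, 32 and 31 tags in “Vec” and 5, 6 and 2 in “WWOX” (−1.32 ± 0.39 with the lower filter, limma, adjusted p = 0.0630), and “Vec” replicate 1 was as low as “WWOX”. PCDHGA9 (log2FC −0.40) and PCDHGC3 (−0.06) overlapped between variants. In U87MG 3 of the 9 tested members had no overlap between variants, PCDHB10, PCDHB11 and PCDHGB2, all higher in “WWOX”, where 17.5% of all genes had none.

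**Figure D3:**
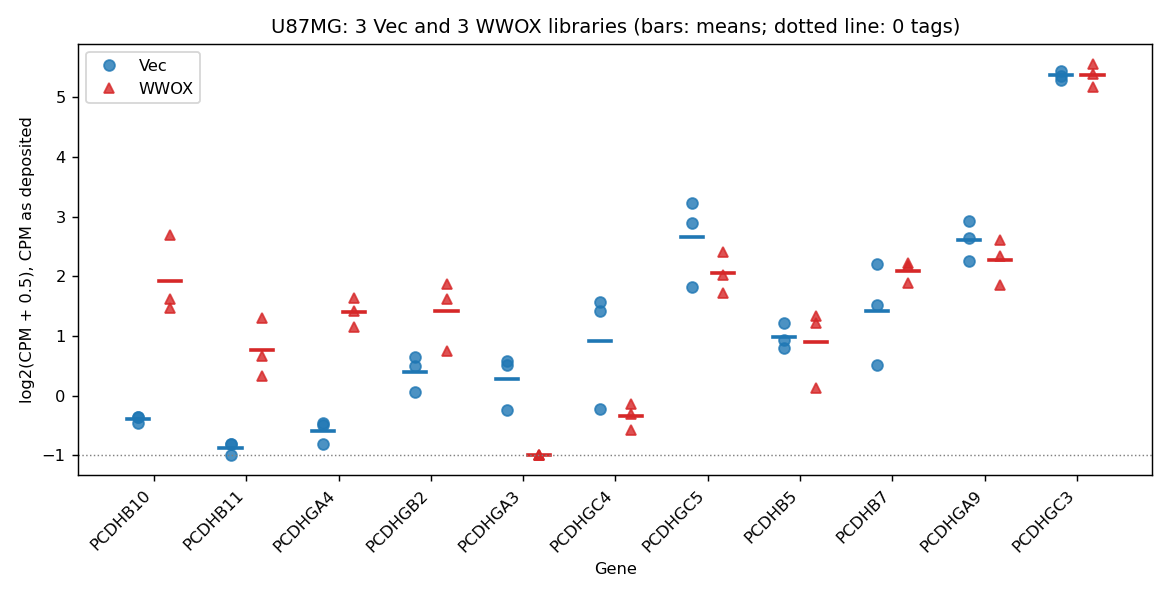
log2(CPM + 0.5) of 11 members in the 3 “Vec” (circles) and 3 “WWOX” (triangles) libraries of U87MG, with means as bars and 0 tags at the dotted line. PCDHB10, PCDHB11 and PCDHGA4 lie higher in every “WWOX” library, PCDHGA3 lies at 0 tags in “WWOX”, and PCDHGC3 coincides.

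Markers of other cell types also moved in U87MG. Of 8 mesenchymal or fibroblast markers 7 were tested and 4 passed: LUM (log2FC 2.88) and DCN (1.50) were higher, and COL1A1 (−1.91) and COL1A2 (−1.46) lower (limma). LUM and COL1A2 also passed with edgeR, limma-voom and DESeq2, COL1A1 with the last 2 and DCN with none of them. The summed level of that list was 397 to 1043 CPM in “Vec” and 269 to 660 in “WWOX”. Of 6 oligodendrocyte markers 3 were tested and MBP passed (2.35), with a sum of 0.0701 to 0.426 CPM in “Vec” and 1.36 to 3.43 in “WWOX”. Of 10 glial, 10 neuronal and 8 blood or endothelial markers, 8, 5 and 1 were tested and none passed in U87MG (0 at unadjusted p under 0.05, limma, and 0 calls with edgeR, limma-voom and DESeq2). MOG, AIF1 and CD3E were at or near 0. The part of these markers in the protocadherin values was not tested.

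In T98G none of the 9 tested members passed (1.14% of all genes did), with 2 at an unadjusted p under 0.05, and edgeR, limma-voom and DESeq2 also made no call. PCDHB10 had 1.12, 1.38 and 1.17 CPM in “Vec” and 2.70, 2.0 and 3.24 in “WWOX” (log2FC 0.86 ± 0.43, SE, limma, adjusted p = 0.449). PCDHB11 had 2.67, 1.19 and 0.856 against 2.79, 2.97 and 3.30 (0.87 ± 0.35, limma, adjusted p = 0.317). Both were higher in each “WWOX” library than in all “Vec” libraries, as was PCDHGA9 (5.98, 4.95 and 5.45 against 7.07, 6.68 and 11.6), which makes 3 of 9 members without overlap, while 16.2% of all genes had none. PCDHB7 had the largest log2FC, 1.26 ± 0.54 (limma, adjusted p = 0.363), from 3.30, 1.50 and 2.10 CPM to 7.44, 2.97 and 9.24, with overlap. PCDHGB7 had the lowest, −0.62 ± 0.37 (limma, adjusted p = 0.557), from 11, 11 and 3 tags to 1, 6 and 1. With the filter of 1 CPM, 1 of 18 members passed (1.50% of all genes did), namely PCDHB12, with 23, 15 and 5 tags in “Vec” and 3, 0 and 3 in “WWOX”. PCDHB12 reached 1 CPM in no library but “Vec” replicate 1 of T98G, so it entered the test through the group in which it was high, and its call is a description. The beta sum was 13.8 ± 4.39 CPM in “WWOX” and 7.01 ± 2.60 in “Vec” (SD, n = 3).

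In U251MG no tested member passed and none was free of overlap (0.316% and 10.4% of all genes). At an unadjusted p under 0.05 there were 0, and edgeR, limma-voom and DESeq2 made no call. PCDHB10 had the lowest log2FC, −0.36 ± 0.43 (SE, limma, adjusted p = 0.826), with 9.65, 6.53 and 5.76 CPM in “Vec” and 8.03, 2.07 and 9.74 in “WWOX”. The low value is that of replicate 2, the library with little WWOX, and without it the log2FC was 0.057 and 0 members passed. PCDHGB2 had the highest log2FC, 0.20 ± 0.34, with 26.0, 22.4 and 15.9 against 33.3, 15.9 and 27.6. PCDHGA4 had 4.30, 2.07 and 1.54 against 3.02, 3.15 and 2.64, with overlap. PCDHGC5 had 1.38, 2.15 and 0.469 CPM against 0, 1.29 and 3.72.

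In DBTRG-05MG no tested member passed and none was free of overlap (1.02% and 19.8% of all genes). At an unadjusted p under 0.05 there were 0, and the other 3 tools made no call. PCDHB10 had the highest log2FC, 0.49 ± 0.43 (SE, limma, adjusted p = 0.927), with 12.4, 4.19 and 21.1 CPM in “Vec” and 11, 20.6 and 16.8 in “WWOX”. “Vec” replicate 2 was low in most members, with 1135 member tags against 1967 and 3184, and without it the log2FC was −0.076. PCDHGB2 had the lowest, −0.41 ± 0.34 (limma, adjusted p = 0.917), with 20.0, 9.59 and 24.9 against 10.4, 19.1 and 11.5. PCDHGB7 had 19.1, 8.63 and 28.8 against 7.61, 25.6 and 14.6, and PCDHGC4 3.08, 0.773 and 4.87 against 2.18, 3.43 and 1.99. PCDHGB7, PCDHGA11 and PCDHGC4 thus had more than 3 tags in each “WWOX” library of this line, as in “Vec”.

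**Figure D4:**
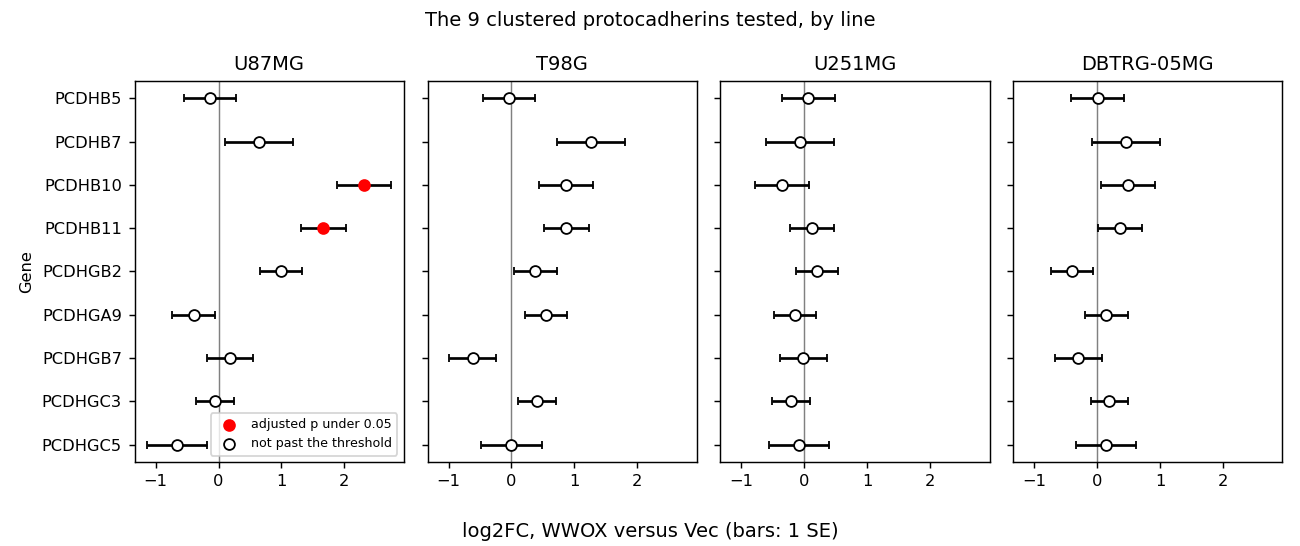
log2FC of “WWOX” versus “Vec” (x axis, on the log2(CPM + 0.5) scale) with 1 SE for the 9 members tested, in each of the 4 lines; filled points passed an adjusted p of 0.05. The 2 filled points are PCDHB10 (2.32) and PCDHB11 (1.67) in U87MG.

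Averaged over the 4 lines, PCDHB10 (log2FC 0.83 ± 0.21, SE, limma, adjusted p = 0.0483) and PCDHB11 (0.76 ± 0.18, adjusted p = 0.0247) were the members that passed, against 1.80% of all genes. By the exact permutation test with labels exchanged within lines, p was 0.0152 for PCDHB10 and 0.00371 for PCDHB11 (two-sided, 160000 arrangements, smallest possible 1.25e-05). Without U87MG, a choice made after the data had been seen, the mean log2FC was 0.33 for PCDHB10 (limma, adjusted p = 0.629) and 0.45 for PCDHB11 (adjusted p = 0.388), and the exact permutation p was 0.283 and 0.0742. The mean of PCDHB10 also lost its call in 19 of 24 cases in which 1 library was left out, and that of PCDHB11 in 5.

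The difference between “WWOX” and “Vec” was not shown to vary between lines for any of the 9 members by limma's F-test (3.48% of all genes passed). At an unadjusted p under 0.05 there were 2. PCDHB10 was nearest, with an adjusted p of 0.0581 (0.000359 to 0.142 over the alternatives other than leaving out a library), and PCDHB11 had 0.245 (0.0195 to 0.473). With edgeR PCDHB10 passed, with DESeq2 both, and with limma-voom neither. With the filter of 1 CPM PCDHGA4 passed (adjusted p = 0.0170), its log2FC being 1.99 in U87MG, −0.12 in DBTRG-05MG, 0.56 in T98G and 0.22 in U251MG.

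The genes around and upstream of the clusters were compared in the same fits. Of 14 neighbors on chromosome 5, 12 were tested and none passed in a line or in the mean, with 0 to 4 at an unadjusted p under 0.05 in a line. The highest of them were HARS1, a histidyl-tRNA synthetase (68.5 to 131 CPM over the 24 libraries), ZMAT2, a splicing factor (27.2 to 157), and TAF7, a TFIID subunit whose gene lies between the beta and gamma clusters (32.1 to 138). In U251MG “Vec” the variable gene PCDHGA9, at 30.7 to 45.6 CPM, was below ZMAT2 (78.3 to 81.6) and TAF7 (66.1 to 102). SLC25A2, another gene between these clusters, had no tag in any library.

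None of the genes for the regulators and partners of the family passed in a “WWOX” versus “Vec” contrast of a line or of the mean. Of 15 genes of CTCF and cohesin 14 were tested, of 20 genes of promoter silencing (DNA methyltransferases, SMCHD1 and others) 17, and of 25 genes of signaling and processing 24. At an unadjusted p under 0.05 there were 0 to 2 of CTCF and cohesin, 1 or 2 of silencing and 0 to 3 of signaling genes in a line. In these contrasts none passed with edgeR and limma-voom either, and with DESeq2 CTNNB1, which encodes beta-catenin, passed in the mean and the GTPase gene RAC1 for a difference between lines. The median log2FC of the silencing genes was −0.08 in U87MG, where that of all genes was −0.0043, and of CTCF and cohesin −0.16.

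Protocadherins outside the clusters were compared in the same way. Of 12 nonclustered genes 7 were tested, among them PCDH1, also counted as a neighbor, and 1 passed, in DBTRG-05MG, where 1.02% of all genes did. PCDH11X, an X-linked delta protocadherin, was lower in DBTRG-05MG “WWOX” (log2FC −0.79, limma, adjusted p = 0.0467), and did not pass with edgeR, limma-voom or DESeq2. It had 23.8, 32.9 and 45.3 CPM in “Vec” and 17.2, 17.9 and 24.5 in “WWOX”, in ascending order, which overlap, and at most 1 tag in a library of the other lines. PCDH10, a delta protocadherin, had 32.6 ± 5.93 CPM in DBTRG-05MG “Vec” and 41.7 ± 11.5 in “WWOX”, and 1.78 ± 1.56 and 6.48 ± 5.86 in U87MG (SD, n = 3). PCDH1 ranged from 0.0773 to 92.0 CPM over the 24 libraries. Of the other marker lists, CDH5 passed in U251MG (log2FC 1.28) and THY1 in the mean (−0.76) with limma, and neither did with the other 3 tools.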

How the data were processed

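CAGE-Seq libraries (75-nt single-end reads) of 8 groups with 3 libraries each were used. Per the paper's methods and the submitters' processing notes, reads were aligned to hg38 with STAR, SAMtools and limma 3.42 were among the tools, and the authors deposited tags per Ensembl gene as CPM, scaled to the same total in each library. How tags in overlapping genes were assigned is not given in the sources used here. Every value was a whole number of tags (100% within 0.01 tags), so tags were recovered, and no column of another sample was present. The deposited table of all samples was used, and the files of single libraries held the same values. Replicates are those the labels call biological, and p-values measure the spread between these libraries.

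CPM were scaled by TMM and log2(CPM + 0.5) was fitted with limma 3.58.1 (trend) in R 4.3.3, with 8 groups, 16 residual degrees of freedom and genes that reached 5 CPM in 1 library or more. Benjamini-Hochberg adjustment ran over all 12327 genes. The contrasts were “WWOX” versus “Vec” in each line, their mean, an F-test of a difference between lines, and the “Vec” groups against each other. Exact permutation tests exchanged labels within lines. The alternatives were 12 other settings, among them edgeR 4.0.16, limma-voom and DESeq2 1.42.0 on the recovered tags, each of 24 libraries left out in turn, and 1 mean without U87MG that was chosen after the data were seen. The fits were tested on simulated data. Values in every library are given for members that passed in a “WWOX” contrast, for the highest member of each cluster in each line, for the members with the extreme log2FC in each line and for the C-type genes. Of the other lists the genes that passed, and the highest of the neighbors and nonclustered protocadherins, are named. Other genes named were chosen after their values were seen. The members and lists were chosen with earlier results of these data known. Promoters came from RefSeq (GRCh38.p14) and gene spans from GENCODE 44.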

Additional observations from a re-analysis of the deposited data

How the results depend on the processing

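In U87MG PCDHB10 passed under all 12 alternatives (log2FC 1.79 to 3.69) and without each of the 24 libraries (1.98 to 2.53). PCDHB11 passed under the 11 alternatives that tested it and in 23 of 24 cases with a library left out. With a pseudocount of 0.1, 2 members passed for a difference between lines in the “WWOX” versus “Vec” contrast, and with a pseudocount of 1 the mean of the lines gave 0. Without a filter 46 members were tested, and those that passed were 6 in U87MG (2.38% of all genes), 1 in T98G (1.04%), 4 in the mean (1.48%), 3 for a difference between lines (3.21%) and 20 between the “Vec” groups (43.4%), and by pairs of “Vec” groups 13 (U87MG and T98G), 11 (U87MG and U251MG), 11 (U87MG and DBTRG-05MG), 10 (T98G and U251MG), 12 (T98G and DBTRG-05MG) and 12 (U251MG and DBTRG-05MG), with 19.0% to 27.6% of all genes. With at least 1 CPM in 1 library they were, of 18, 3 in U87MG (3.76%), 1 in T98G (1.50%), 3 in the mean (2.35%) and 2 for a difference between lines (4.49%). With this filter 17 passed between the “Vec” groups (67.1%) and, in the same order of pairs, 10, 11, 9, 10, 10 and 12 (31.1% to 43.9%). With a mean of at least 5 CPM they were, of 4, 1 in U87MG (1.99%), 0 in the mean (0.967%), 4 between the “Vec” groups (63.1%) and 2, 4, 2, 3, 2 and 2 by pairs (28.6% to 40.6%). These filters change how many members are tested. With CPM as deposited, and with edgeR, 1 member passed in the mean. For a difference between lines, edgeR gave 1 and DESeq2 2. The mean without U87MG gave 0. With the replicate number as a block, 1 member (PCDHB10) passed for a difference between lines. Same-numbered libraries did not deviate together throughout (correlations −0.546 to 0.510, over 0.1 in 4 of 12 pairs), so the numbers were not taken as pairs. Those 4 were replicates 1 and 2 of U87MG (0.342 and 0.212) and of T98G (0.429 and 0.510). With 1 library left out, 1 to 3 members passed in U87MG, 0 to 2 in the mean, 0 to 1 for a difference between lines, 3 to 5 between T98G and DBTRG-05MG and 4 to 7 between U251MG and DBTRG-05MG. PCDHB10, which did not pass in these lines, had a log2FC of −0.635 to 0.057 in U251MG and −0.076 to 0.928 in DBTRG-05MG with 1 library left out, and changed sign without U251MG “WWOX” replicate 2 (0.057) and without DBTRG-05MG “Vec” replicate 2 (−0.076). The cause of these changes was not tested. Low tag numbers limit the alpha genes and most variable genes.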
